A study of Mus musculus with 5 samples.

Results

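The 10 genes described here encode receptors for acetylcholine, and they were taken by symbol from the 23420 genes with a value in the dentate gyrus (DG) libraries of the series. They are the 5 muscarinic receptors Chrm1 to Chrm5 and the nicotinic subunits Chrna3, Chrna4, Chrna5, Chrna7 and Chrnb2. All 10 symbols were present in all 5 libraries. RNA-Seq was done on polyA RNA of the microdissected DG of wild-type male mice of the outbred CD1 strain, aged 4 months per the labels, after 4 weeks of housing. LD mice were housed alone with a locked disk, RUN mice alone with a disk that turned, and CE (complex environment) mice in social groups with tunnels and a locked disk. Each of these 3 libraries was made from the pooled RNA of 8 mice. The L-RUN and H-RUN libraries were pools of 4 mice each, the low and the high runners among the same 8 mice as RUN, so that running distance was a trait of the mice and was not assigned. CE mice differed from LD and RUN mice in social housing as well as in tunnels.

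Acetylcholine reaches the DG mainly from neurons of the medial septum and diagonal band, whose cell bodies lie outside the hippocampus. Muscarinic receptors are coupled to G proteins: M1, M3 and M5 act through Gq on phospholipase C, and thereby on stores of calcium, protein kinase C and the M-type potassium channels, while M2 and M4 act through Gi on adenylyl cyclases and inwardly rectifying potassium channels. Nicotinic receptors are cation channels made of several subunits, with alpha7 (Chrna7) able to form a channel alone and alpha4 (Chrna4) with beta2 (Chrnb2) forming the most common heteromeric type in the brain.

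Each value was a regularized log (rlog), a log2 scale on which DESeq2 shrinks genes with few reads towards their mean. A difference of 0.3 in size, the cut-off used in the study, was applied to genes with a mean rlog of at least 5, called expressed here (13550 genes). With 1 library per group there was no replicate check and no test was possible. The technical SD of a difference was estimated from how far RUN departed from a mixture of L-RUN with H-RUN, whose RNA it shared. It was 0.04 over all expressed genes and 0.05 for Chrm3 and Chrna7, and it did not cover differences between mice. In RNA of whole tissue, fewer cells of a type and less RNA per cell cannot be told apart.

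The 5 muscarinic genes each have their coding sequence in 1 exon, whereas those of the nicotinic genes are divided over 6 to 10 exons. Stretches shared by family members are shown because a read wholly inside one cannot be assigned to a gene by its sequence. Among the 10 pairs of muscarinic genes, coding sequences were identical at 65.9% to 73.1% of aligned bases, and the longest exact match of a pair was 17 to 29 bases. Capitals mark the matches of Chrm1 with Chrm4 and of Chrm1 with Chrm3, with 12 flanking coding bases on each side (GENCODE annotation, GRCm38, coding strand). The first pair lies at chr19:8679031-8679083 on the plus strand and at chr2:91928452-91928504 on the plus strand, and the other at chr19:8678089-8678135 on the plus strand and chr13:9878670-9878716 on the minus strand.
Chrm1, match with Chrm4: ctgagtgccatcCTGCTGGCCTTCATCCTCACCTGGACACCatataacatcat
Chrm4, match with Chrm1: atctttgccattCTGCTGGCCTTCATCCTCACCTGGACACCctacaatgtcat
Chrm1, match with Chrm3: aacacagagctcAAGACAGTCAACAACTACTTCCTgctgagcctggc
Chrm3, match with Chrm1: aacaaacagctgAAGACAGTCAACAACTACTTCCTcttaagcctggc

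In the 10 pairs of nicotinic genes, identity was 60.0% to 71.2% and the longest match 11 to 23 bases. The match of Chrna4 (chr2:181029398-181029438, minus strand) with Chrna7 (chr7:63107625-63107665, minus strand), again in capitals, is shown as that of the expressed alpha subunits.
Chrna4, match with Chrna7: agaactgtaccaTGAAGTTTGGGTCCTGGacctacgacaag
Chrna7, match with Chrna4: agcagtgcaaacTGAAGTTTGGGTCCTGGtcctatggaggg
No match in either family exceeded 29 bases. Overlap with other genes was found for most members, namely Chrm1, Chrm2, Chrm4, Chrm5, Chrna3, Chrna5 and Chrnb2. Assignment of reads to them is uncertain because the strand setting of the counting is not given in the sources used here. In RefSeq, Chrna3 and Chrna5 overlap tail to tail over 1304 bases, Chrm4 shares 31 bases with Mdk and the span of Chrm5 shares 43479 bases with that of Aven. The GENCODE exons of Chrnb2 share 1365 bases with those of Adar on the opposite strand, and the RefSeq spans of these genes share 8 bases. Chrm2 shares 142 exon bases with 9330158H04Rik and Chrm1 shares 329 with Gm22820. Chrm3 and Chrna7, on which most of the results turn, share no exon bases with another gene in GENCODE.

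In all, 6 of the 10 members were expressed and 4 were below the minimum. Levels were compared between genes per length, as the mean rlog over the 5 libraries minus log2 of the length of the longest transcript in kb. Chrm1 (chr19:8663789-8683587, plus strand), the main muscarinic receptor of principal neurons of the forebrain, was the highest at 10.36 ± 0.05 (SD over 5 libraries). This was 2.10 above Chrm4 at 8.26 ± 0.09 on the same scale, the Gi-coupled receptor (chr2:91927249-91928688, plus strand). Chrnb2 (chr3:89746195-89764632, minus strand) followed at 8.09 ± 0.06, then Chrna7 (chr7:63098692-63212569, minus strand) at 7.18 ± 0.14, Chrm3 (chr13:9875486-10360847, minus strand) at 6.30 ± 0.17 and Chrna4 (chr2:181018380-181043546, minus strand) at 5.75 ± 0.07. Chrm1 therefore exceeded every other member by far more than the spread over the libraries, and the 6 expressed members stood above the other 4 by a gap of 2.42. Every gap between neighbours exceeded their SDs over the libraries, but the order of close neighbours also rested on the length used. Chrm4 and Chrnb2 lay 0.18 apart, more than the SD of either, but exchanged places when the mean length of all transcripts was used in place of the longest, as did Chrm3 and Chrna4, which both came to 7.22. In addition, the GENCODE models of Chrm4 (1.44 kb) and Chrm5 (1.599 kb) hold coding sequence only, which raises their levels per length.

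The 4 genes with low values were Chrna5 with a level per length of 3.33 (chr9:54980880-55007779, plus strand), an accessory subunit of alpha4 beta2 receptors, Chrm5 with 2.12 (chr2:112479171-112480769, minus strand), Chrna3 with 1.34 (chr9:55010111-55026562, minus strand), the main alpha subunit of autonomic ganglia and the medial habenula, and Chrm2 with 0.31 (chr6:36388084-36528414, plus strand), a Gi-coupled autoreceptor of cholinergic terminals. Their rlog values per library were nearly flat. Chrm2 lay between 2.79 and 2.82, Chrm5 between 2.77 and 2.84, Chrna3 between 3.45 and 3.48 and Chrna5 between 4.58 and 4.67. Flat values of such genes are a property of the scale: of the 3594 genes with a mean above 0 and below 5, 0 passed the cut-off in any comparison, and the largest difference among them was 0.29. A change of these 4 receptors was thus not detectable in these values.

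Transcripts of cells that make acetylcholine were near the lower end of the scale. Chat, the enzyme of its synthesis, had rlog values of 0.15 to 0.16, the vesicular transporter Slc18a3 of 0.67 to 0.69 and the choline transporter Slc5a7 of 2.64 to 2.67. None of the 5 markers of cholinergic neurons was expressed, and Gbx1 among them was listed at 0 in all libraries. Of the medial habenula, another region rich in nicotinic receptors, 0 of the 4 markers in the files were expressed. In contrast, Ache, which breaks acetylcholine down, was expressed, with 10.06 for LD, 10.27 for CE, 10.07 for RUN, 10.10 for L-RUN and 10.14 for H-RUN. All 8 markers of dentate granule cells were expressed, among them Prox1 at 12.01 and C1ql2 at 11.69 in LD. Markers of CA1, interneurons, glia and the leptomeninges were expressed as well, so that the receptor values are those of the whole dissected tissue.

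In the low runners, 2 of the 6 expressed receptor genes were lower than in LD by more than the cut-off, the Gq-coupled muscarinic receptor Chrm3 and the nicotinic subunit Chrna7. Among all expressed genes, 2.33% were lower by this cut-off in L-RUN and 3.13% passed it in either direction. Chrm3 had an rlog of 8.52 for LD, 8.50 for CE, 8.33 for RUN, 8.16 for L-RUN and 8.57 for H-RUN. Thus the low runners had the lowest value and the high runners a value near those of LD and CE. The pool of all runners lay between them, which follows from pooling the same mice. The difference of L-RUN from LD was -0.36 ± 0.05 (technical SD) on the log2 scale, so that Chrm3 fell by 22.1%, a change of -7.61 technical SDs. In this comparison 197 expressed genes (1.45%) were lower still.

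Chrna7 had an rlog of 8.82 for LD, 8.77 for CE, 8.55 for RUN, 8.50 for L-RUN and 8.74 for H-RUN. Here too L-RUN was the lowest, followed by RUN, while CE and H-RUN lay just below LD. L-RUN differed from LD by -0.32 ± 0.05, so that Chrna7 fell by 19.8% (-6.71 technical SDs), and 272 expressed genes (2.01%) were lower. This value lay beyond the cut-off by less than its technical SD. RUN minus LD was -0.26 for Chrna7, short of the cut-off, and -0.19 for Chrm3.

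**Figure D1:**
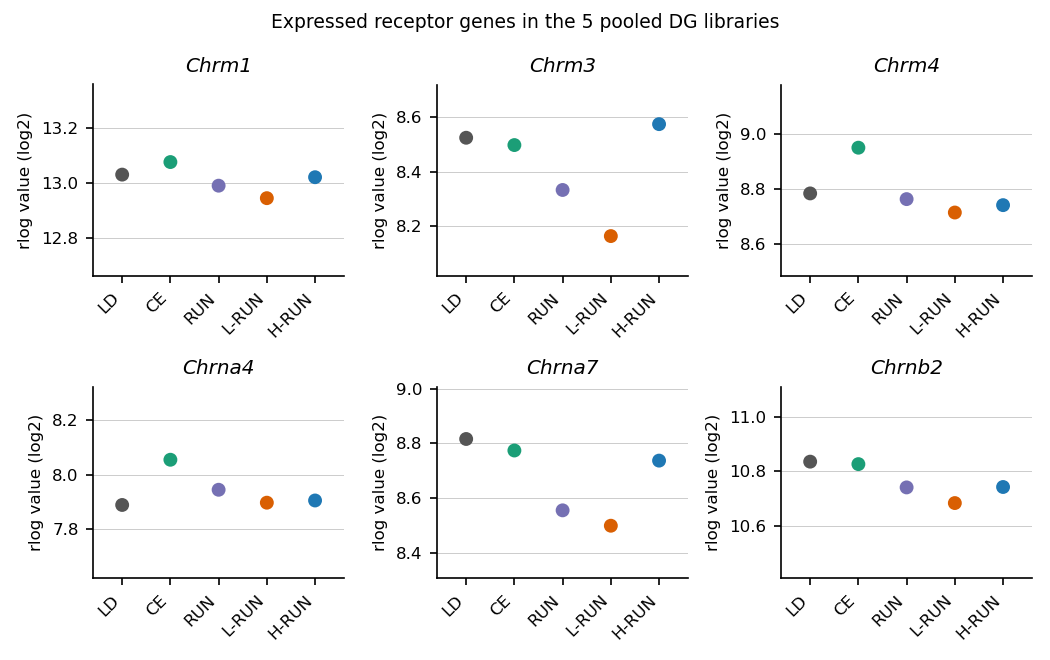
The 6 expressed receptor genes, with the rlog value (log2, vertical axis, of equal span in each panel but not starting at 0) in the 5 libraries; each point is 1 pooled library. Chrm3 runs from 8.16 in L-RUN to 8.57 in H-RUN and Chrna7 from 8.50 in L-RUN to 8.82 in LD, whereas Chrm4 and Chrna4 are highest in CE.

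The plot of levels shows that the other expressed members moved less. Chrnb2 had an rlog of 10.84 for LD, 10.83 for CE, 10.74 for RUN, 10.68 for L-RUN and 10.74 for H-RUN. All 3 libraries of runners, of which RUN holds the same mice as the others, were below LD and CE. The difference from LD was -0.15 ± 0.03 in L-RUN, within the cut-off. Chrm1 had 13.03 for LD, 13.08 for CE, 12.99 for RUN, 12.94 for L-RUN and 13.02 for H-RUN. The difference of L-RUN from LD was -0.09 ± 0.02. Chrm4 and Chrna4 were at -0.07 and 0.01 in the same comparison. The median over the 6 expressed members was -0.12, compared to 0.00 for all expressed genes, and 5 of the 6 were below 0.

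**Figure D2:**
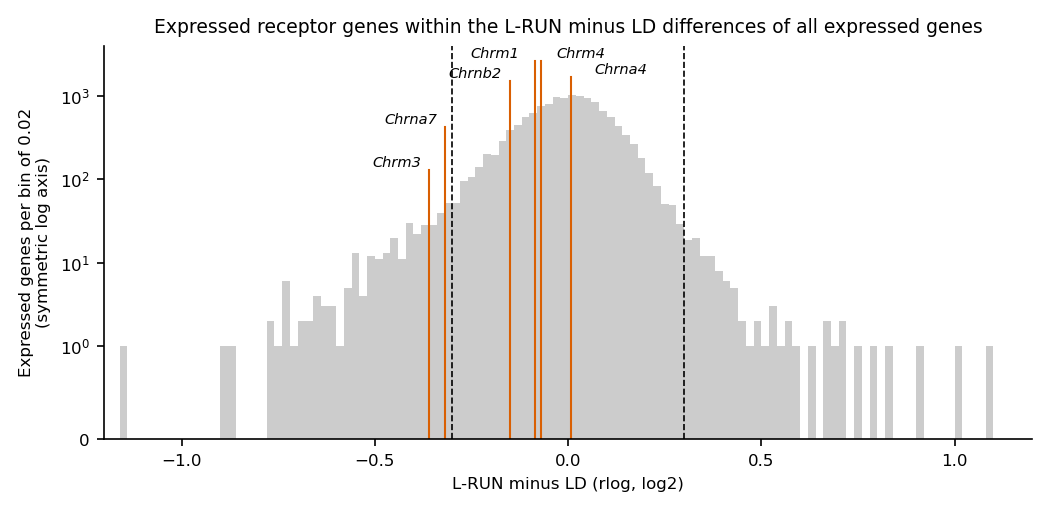
Number of expressed genes (vertical axis, symmetric log scale) by the difference L-RUN minus LD (horizontal axis, rlog, log2), with the 6 expressed receptor genes as orange lines whose heights carry no value and the cut-off of 0.3 as dashed lines. Chrm3 and Chrna7 stand in the lower tail, and Chrna4 at 0.01 near the centre.

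The histogram places the members in the differences of all 13550 expressed genes, among which 316 were lower and 108 higher. Differences in L-RUN also moved with transcript length, with a median of 0.09 for the 1212 expressed genes under 1.5 kb and of -0.07 for the 5197 genes of 4 kb or more. The trend at a member's own length was small for Chrm3 (4.336 kb, -0.03) and for Chrna7 (2.814 kb, 0.02). With it removed, L-RUN minus LD was -0.33 for each of Chrm3 and Chrna7. For the long transcripts of Chrnb2 and Chrm1 the trend was -0.08 at each length, and their differences without it were -0.07 and -0.01. For the short model of Chrm4 the trend was 0.07, so that its difference went from -0.07 to -0.14, still within the cut-off, and that of Chrna4 from 0.01 to 0.05. The model of Chrm4 holds coding sequence only, so its value without the trend is uncertain. Over all genes with a length, 182 were lower and 99 higher once the trend was removed.

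**Figure D3:**
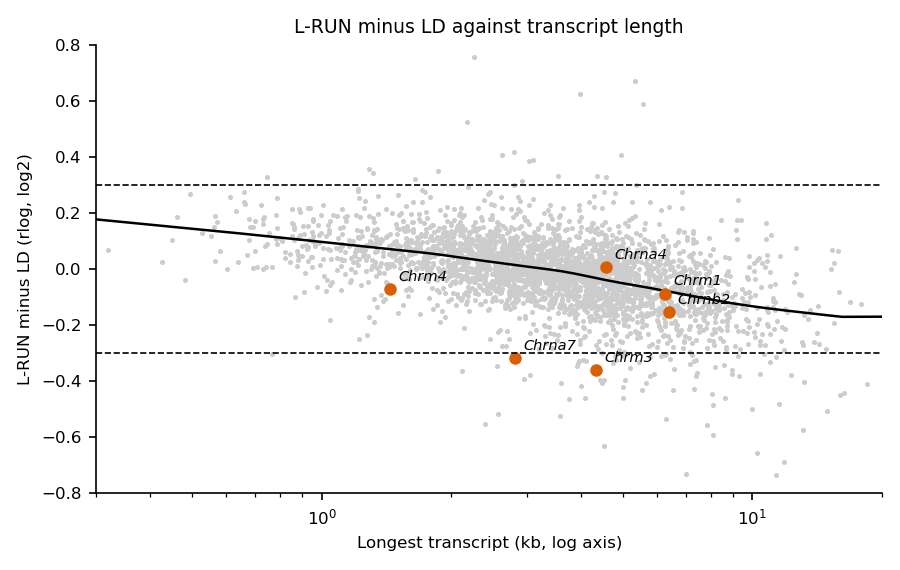
L-RUN minus LD (rlog, log2, vertical axis) against the length of the longest transcript (kb, log axis), with a subset of expressed genes in grey, the lowess trend over all expressed genes with a length as a black line, the cut-off of 0.3 as dashed lines and the 6 expressed receptor genes in orange. Chrm3 and Chrna7 lie well below the trend at their lengths, while Chrm1 and Chrnb2 lie close to it.

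Markers of other cell types also differed between the libraries. CA1 pyramidal neurons, which adjoin the DG, had all 6 of their markers expressed in every library. The summed level of these markers, as log2 of the sum on the linear scale, was 12.22 for LD, 12.34 for CE, 12.01 for RUN, 11.86 for L-RUN and 12.13 for H-RUN. L-RUN minus LD was thus -0.37 for the sum, with 4 of the 6 markers lower by the cut-off. As for Chrm3 and Chrna7, the sum was lower in L-RUN than in H-RUN. RUN, pooled from the same mice, lies between them by construction. Markers of leptomeningeal fibroblasts had a sum of 11.23 for LD, 11.46 for CE, 11.56 for RUN, 11.96 for L-RUN and 11.08 for H-RUN, with 7 of 8 higher by the cut-off in L-RUN. In L-RUN the summed differences from LD were -0.29 for astrocytes, -0.22 for oligodendrocytes and -0.17 for microglia. They were -0.07 for granule cells, 0.02 for interneurons and 0.01 for CA3 pyramidal neurons. Single markers did pass the cut-off, with 1 higher and 1 lower for granule cells and 2 higher and 1 lower for interneurons. The part of these cell types in the values of Chrm3 and Chrna7 was not tested.

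The promoters of the pair that passed the cut-off in L-RUN are shown, since Chrm3 and Chrna7 were lower together. Each sequence is the 200 bases from 250 to 51 bases before the start of the RefSeq gene (GRCm38.p6), 5′ to 3′ on the strand of the gene, with CpG dinucleotides in capitals. They lie at chr13:10360854-10361053 (minus strand) for Chrm3 and chr7:63212577-63212776 (minus strand) for Chrna7.
Chrm3 promoter: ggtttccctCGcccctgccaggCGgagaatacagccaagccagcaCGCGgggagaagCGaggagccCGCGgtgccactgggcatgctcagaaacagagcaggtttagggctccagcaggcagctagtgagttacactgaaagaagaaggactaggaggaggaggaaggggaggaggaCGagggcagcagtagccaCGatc
Chrna7 promoter: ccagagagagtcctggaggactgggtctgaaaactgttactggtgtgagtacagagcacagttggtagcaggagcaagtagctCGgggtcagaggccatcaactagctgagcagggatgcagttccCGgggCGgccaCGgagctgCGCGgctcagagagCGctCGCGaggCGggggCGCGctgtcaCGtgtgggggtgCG
Chrm3 had 9 CpGs in this window and Chrna7 14, compared to a median of 4 over 32851 promoters of all genes. Members with an entry ranged from 1 CpG in one of the 2 promoters of Chrna5 to 18 in that of Chrm4. Searched on both strands, a GC box (GGGCGG) was found once in the window of Chrna7 and not in that of Chrm3, and it was present in 24.6% of all promoters. The E box letters CANNTG occurred at 2 places in the window of Chrna7 and at 0 in that of Chrm3, compared to 59% of promoters with at least 1. The core letters of the CRE, TGACG, were in neither, and in 12.7% of all promoters. Among the members, TGACG was found in the window of Chrnb2 alone. These are matches of letters and do not show binding.

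The high runners did not share these differences from LD by the cut-off, since 0 of the 6 expressed members passed it in H-RUN, where 0.827% of expressed genes did. Chrm3 was at 0.05 ± 0.05, Chrna7 at -0.08 ± 0.05 and Chrnb2 at -0.09 ± 0.03 in H-RUN minus LD. The median of the members was -0.03. This comparison uses the same LD library as the other comparisons with LD, so the direct one between low and high runners, which share no mice, was made as well. Chrm3 was the 1 member to pass it, where 1.54% of expressed genes did and 0.974% were lower by it. L-RUN minus H-RUN was -0.41 ± 0.05 for Chrm3, which fell by 24.7% (-8.66 technical SDs), and only 41 expressed genes (0.303%) were lower. For Chrna7 it was -0.24 ± 0.05, short of the cut-off but with only 266 expressed genes (1.96%) lower. All 6 expressed members were below 0, with a median of -0.07, compared to -0.003 over all expressed genes. Without the length trend, the values were -0.39 for Chrm3 and -0.24 for Chrna7. The others were then close to 0, with Chrm4 at -0.06, Chrm1 at -0.04, Chrnb2 at -0.02 and Chrna4 above 0 at 0.01. The summed CA1 markers differed in the same direction, as their levels given above show, and their part was not tested here either.

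In the pool of all runners, 0 of the 6 expressed members passed the cut-off against LD, where 1.31% of expressed genes did. Chrna7 came closest, at -0.26 ± 0.05 (190 expressed genes, 1.40%, were lower), followed by Chrm3 at -0.19 ± 0.05 and Chrnb2 at -0.09 ± 0.03. The RUN value departed from the mean of the low and high runners by -0.05 for Chrm3 and by -0.07 for Chrna7, and by 0.01 to 0.04 for the other 4. For both Chrm3 and Chrna7 the RUN value lay above L-RUN but under H-RUN, which follows from pooling the same mice.

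In CE, where mice had company and tunnels but could not run, 0 of 6 members passed the cut-off, as did 0.598% of expressed genes. The largest differences were those of Chrm4 and Chrna4, and they were above LD. Chrm4 had an rlog of 8.78 for LD, 8.95 for CE, 8.76 for RUN, 8.71 for L-RUN and 8.74 for H-RUN. Chrna4 had 7.89 for LD, 8.05 for CE, 7.95 for RUN, 7.90 for L-RUN and 7.91 for H-RUN. For both genes CE was the highest of the 5 libraries. CE minus LD was 0.17 ± 0.05 for each, or 12.3% and 12.2%, which came to 3.54 and 3.52 technical SDs, and 3.60% and 3.68% of expressed genes were higher. With the length trend removed, the values were 0.13 for Chrm4 and 0.19 for Chrna4. The length used for Chrm4 was that of a model with coding sequence only, so its value without the trend is uncertain. Chrm3 was at -0.03, Chrna7 at -0.04, Chrnb2 at -0.01 and Chrm1 at 0.05. Summed markers were also higher in CE than in LD for the choroid plexus (0.25), leptomeningeal fibroblasts (0.23), CA1 (0.12), mossy cells (0.10), neuroblasts (0.09) and interneurons (0.06). All 5 mossy cell markers and 9 of 12 interneuron markers were above 0. Of the CA1 markers 3 of 6 were above 0, and of the neuroblast markers only 1 of 5, so those sums do not stand for most of their markers. Only 2 of the 6 choroid plexus markers were expressed, and 1 of them was higher by the cut-off, so that sum rests on few genes. The sum of granule cells was at -0.15. The part of these cell types in the values of Chrm4 and Chrna4 was not tested.

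Compared directly, RUN was below CE for all 6 expressed members, with a median of -0.14 (-0.0007 over all expressed genes). However, 0 of 6 passed the cut-off, where 0.834% of expressed genes did. RUN minus CE was -0.22 ± 0.05 for Chrna7, -0.19 ± 0.05 for Chrm4, -0.16 ± 0.05 for Chrm3, -0.11 ± 0.05 for Chrna4 and -0.09 for Chrm1 and for Chrnb2. Running and social housing both differ between these libraries and cannot be told apart. RUN minus CE was also -0.33 for the summed CA1 markers, -0.25 for those of the choroid plexus and -0.07 for those of interneurons, of which 9 of 12 were below 0. Of the CA1 markers 5 of 6 were below 0, but their median was -0.11 and only 1 passed the cut-off. Only 2 of the 6 choroid plexus markers were expressed, and 1 of them passed it. The part of these cell types in the values of the receptors was not tested.

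**Figure D4:**
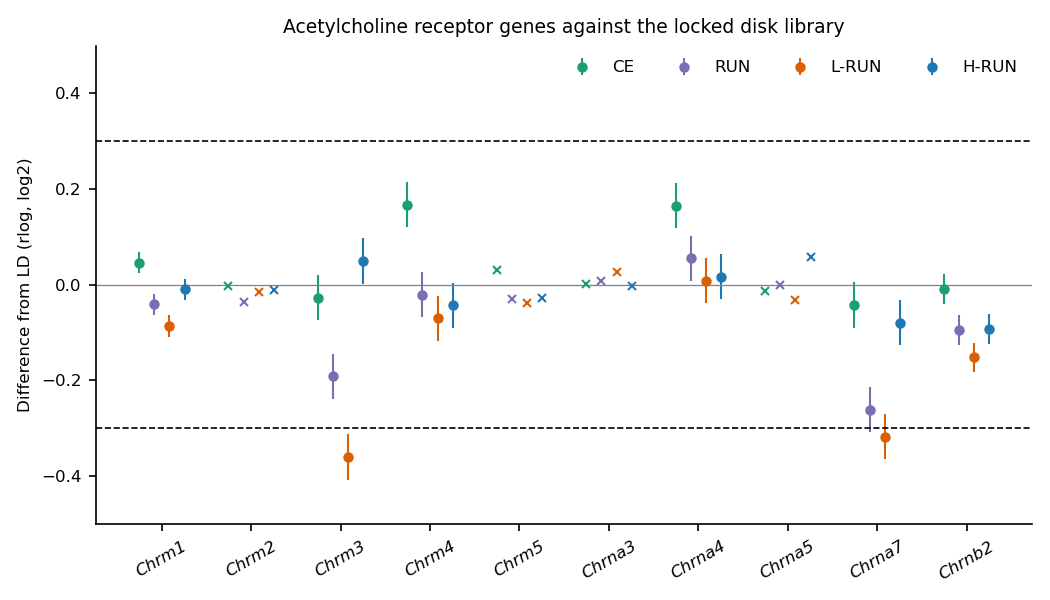
Difference from the LD library (rlog, log2, vertical axis) for the 10 receptor genes in CE and the 3 libraries of runners (legend); dots are expressed genes with bars of ± 1 technical SD, crosses are the 4 genes with a mean rlog under 5, and dashed lines mark the cut-off of 0.3. Only Chrm3 (-0.36) and Chrna7 (-0.32) in L-RUN lie beyond a dashed line.

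The differences across all 4 comparisons with LD were used to find the expressed genes closest to Chrm3 and Chrna7, by Euclidean distance over these 4 values, which share the LD library. For Chrm3 the closest were the transcription factor gene Foxo3 (distance 0.0723, L-RUN minus LD -0.35), the scaffold gene Cnksr2 (0.0822, -0.37) and Sv2b (0.0859, -0.37), which encodes a protein of synaptic vesicles. For Chrna7 they were Slc24a4 (0.0372, -0.30), a potassium-dependent sodium/calcium exchanger, 5930403L14Rik (0.0435, -0.28) and Slit1 (0.0437, -0.34), an axon guidance ligand. The distances are smaller for Chrna7 than for Chrm3.

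A further 70 genes of cholinergic signaling were followed, of which 55 were expressed, on lists chosen with earlier results of these data known. In L-RUN, 8 of the 55 passed the cut-off (14.5%), 7 lower and 1 higher, where 3.13% of all expressed genes did. The median of the 55 was -0.09. Against LD, CE had 3 such genes, RUN 4 and H-RUN 3, where 0.598%, 1.31% and 0.827% of all expressed genes passed. The medians were -0.01, -0.05 and -0.03. In L-RUN minus H-RUN there were 8, all lower, with a median of -0.07, and in RUN minus CE there was 1. Of all expressed genes, 1.54% and 0.834% passed in these comparisons. Because of how the lists were chosen, these counts do not show whether the cholinergic system as a whole moved. The 7 genes that were lower in L-RUN all belonged to the lists of the Gq and Gi branches, which held 15 and 14 of the 55 expressed genes. This depended on the processing. With the length trend removed from L-RUN minus LD, Adcy1 of the Gi branch was inside the cut-off at -0.22. Rgs14, from the list of kinases, arrestins and RGS proteins, was then past it at -0.32, compared to -0.29 before. The summed markers of CA1 (-0.37), astrocytes (-0.29) and oligodendrocytes (-0.22) were lower in the same library, and their part in the values of these 7 genes was not tested.

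The Gq branch, through which Chrm3 acts, had 15 genes, all expressed. In L-RUN 14 of 15 were below 0, with a median of -0.16, compared to -0.002 over all expressed genes. The count of genes below 0 rested in part on transcript length. Without the length trend, Gna11 (0.02), Plcb3 (0.04), Itpr2 (0.07) and Itpr3 (0.11) lay above 0. In L-RUN 3 genes passed the cut-off: Itpr1, Prkcb and Kcnq3. Itpr1, the receptor that releases calcium from internal stores, had 12.79 for LD, 12.42 for CE, 12.31 for RUN, 12.18 for L-RUN and 12.39 for H-RUN. LD was thus the highest library for Itpr1, and each of the other 4 was lower by the cut-off, by -0.37, -0.48, -0.60 and -0.40 in the same order. Kcnq3, a subunit of the M-type potassium channel that muscarinic receptors close, had 9.14 for LD, 8.86 for CE, 8.60 for RUN, 8.45 for L-RUN and 8.75 for H-RUN. It passed the cut-off in all 3 libraries of runners (-0.54, -0.69 and -0.39) and was at -0.28 in CE.

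Prkcb, the beta isoform of protein kinase C, had 13.45 for LD, 13.22 for CE, 13.15 for RUN, 12.89 for L-RUN and 13.31 for H-RUN. Its order over the libraries was that of Chrm3 only in part, since L-RUN was the lowest (-0.56) but H-RUN did not reach LD. Between low and high runners Prkcb differed by -0.41 (RUN minus LD was -0.30, also past the cut-off), and the alpha isoform Prkca (-0.32) passed the cut-off too. Gnaq itself was at -0.26 in L-RUN and Plcb1 at -0.15, or -0.06 for Plcb1 without the length trend. The related genes of the branch were closer to LD, with Gna11 at 0.02, Plcb2 at -0.09, Plcb3 at -0.001 and Plcb4 at -0.11. The transcripts of Itpr1 (9.87 kb) and Kcnq3 (11.824 kb) are long. The length trend of L-RUN was -0.13 and -0.15 at these lengths, and the differences without it were -0.47 and -0.54.

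Of the Gi branch, through which Chrm2 and Chrm4 act, 14 of 15 genes were expressed, and 4 were lower by the cut-off in L-RUN, with a median of -0.13. Kcnj3 and Kcnj6, subunits of the inwardly rectifying channels that Gi opens, were at -0.45 and -0.49 in L-RUN minus LD and at -0.37 and -0.39 in L-RUN minus H-RUN. Adenylyl cyclase Adcy9 was at -0.45 and -0.44 in these comparisons. Adcy1, with an rlog of 15.62 in LD, was at -0.37 and -0.30. Its transcript is long too (12.259 kb), and without the length trend L-RUN minus LD was -0.22, inside the cut-off. Adcy1 also passed the cut-off in CE (-0.30), alone in this branch, and 0 of the 14 did in RUN or H-RUN against LD.

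Upstream and around the receptors, fewer genes passed the cut-off. Of the 3 expressed genes of synthesis, transport and breakdown, 0 passed in any of the 6 comparisons. The nearest to it was Slc44a1, a choline transporter, at -0.28 in L-RUN, and Ache was at 0.22 in CE. Among 9 expressed chaperones and Ly6 proteins that bind nicotinic receptors, Ly6h was higher in CE, with 12.12 for LD, 12.50 for CE, 12.26 for RUN, 12.34 for L-RUN and 12.17 for H-RUN (CE minus LD 0.38). Lynx1 differed between low and high runners (-0.31), with H-RUN above LD by 0.20 and L-RUN at -0.11. Ric3, a chaperone for assembly of alpha7 receptors, was at -0.22 in L-RUN. Over the 9 genes in L-RUN minus LD, however, 5 were above 0 and 4 below, with a median of 0.00.

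Of the 11 kinases, arrestins and RGS proteins that turn receptor signaling off, Rgs4, which speeds the turning off of Gq and Gi, was the 1 gene past the cut-off. It had 12.03 for LD, 12.01 for CE, 12.40 for RUN, 12.41 for L-RUN and 12.45 for H-RUN. All 3 libraries of runners were thus above both libraries of mice that could not run, by 0.37, 0.38 and 0.42 against LD and by 0.39 for RUN against CE. Rgs4 did not follow the split between low and high runners seen for Chrm3.

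**Figure D5:**
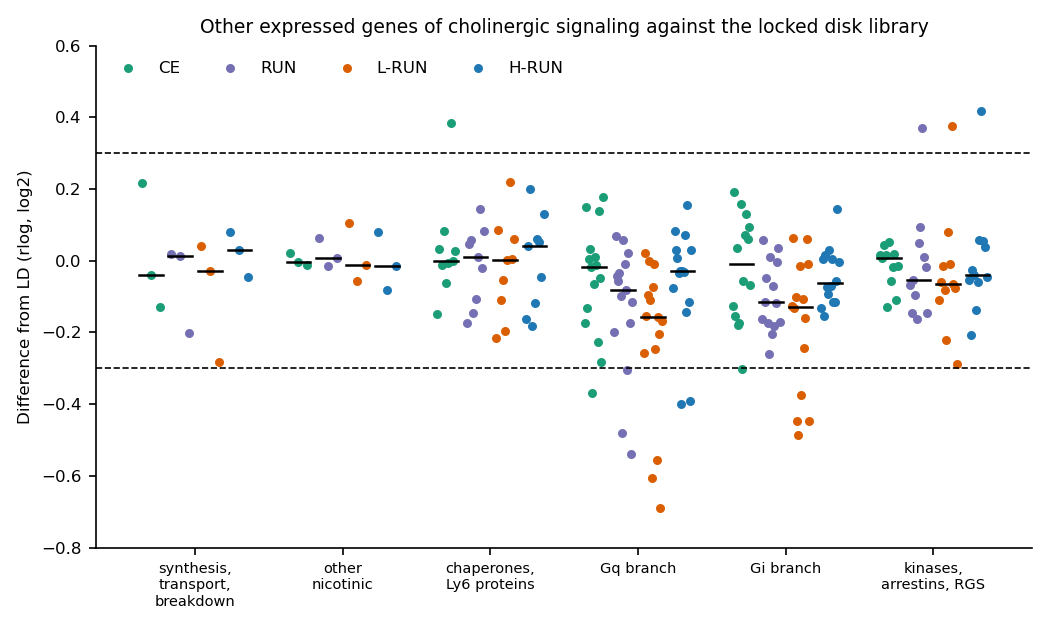
Difference from LD (rlog, log2, vertical axis) of the 55 other expressed genes of cholinergic signaling, grouped by role, in CE and the 3 libraries of runners (legend); each point is 1 gene, black bars are medians and dashed lines mark the cut-off of 0.3. In L-RUN 3 genes of the Gq branch and 4 of the Gi branch lie below -0.3, and Rgs4 lies above 0.3 in all libraries of runners.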

How the data were processed

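The DG libraries were described by the labels and the study's methods as pools of RNA, 1 per group. The authors trimmed adapters, mapped reads to mm10 with TopHat2 (2.0.10), took HTSeq counts over RefSeq genes and computed regularized log values over all libraries at once with DESeq2 (1.10.1), and CASAVA (1.8.2) is named in the processing notes. The deposited values are log2 values, 1 for each gene of a library, and were used as they are. Read counts and depth are unknown here, so no interval from counting was given and the shrinkage of low genes could not be undone.

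Differences were taken between libraries, with a cut-off of 0.3 and a minimum mean of 5, in 6 comparisons, without a test. The technical SD came from the median absolute deviation of RUN from log2 of the linear mean of both runner subgroups, per decile of level, divided by the root of 1.5 and multiplied by that of 2. It takes the 3 libraries as equally noisy. The length trend was a lowess curve (fraction 0.3) on the longest GENCODE transcript, available for 94.2% of expressed genes. Promoters were RefSeq entries, with 9 of the 10 members matched. Coding sequences were aligned pairwise with Biopython 1.88. Tables were handled with pandas 2.3.3 and numpy 2.4.6 in Python 3.11.15, trends with statsmodels 0.14.6, and plots with matplotlib 3.10.9.

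The members, the cholinergic lists and the marker lists were chosen with earlier results of these data known. Named were all members, list genes past the cut-off or of synthesis and release, the 3 expressed genes nearest to each member past the cut-off, and markers and list genes given for context (Gnaq, Plcb1 and Ric3 among them, chosen after their values were seen). A gene of the cholinergic lists is counted but not reported here by name. The scripts were tested on simulated data, which checks the arithmetic and not the rate of false calls.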

Additional observations from a re-analysis of the deposited data

How the results depend on the processing

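No alternative changed the sign of a member past the cut-off. Median centring and a minimum mean of 7 left each count of genes within 1.5 times its value, and the technical SD was 0.04 also from a mean of log values. With a cut-off of 0.2, members past it numbered 1 in RUN minus LD, 2 in L-RUN minus H-RUN and 1 in RUN minus CE, and cholinergic genes 6 for CE, 7 for RUN, 17 for L-RUN and 7 for RUN minus CE. The shares of all expressed genes past 0.2 were 3.77% for CE, 4.66% for RUN, 9.93% for L-RUN, 4.93% for L-RUN minus H-RUN and 3.48% for RUN minus CE. With a cut-off of 0.4, members numbered 0 in L-RUN minus LD, and cholinergic genes 0 in CE, 2 in RUN, 2 in L-RUN minus H-RUN and 0 in RUN minus CE, where 0.185% (CE), 0.384% (RUN), 1.36% (L-RUN), 0.598% (L-RUN minus H-RUN) and 0.251% (RUN minus CE) of expressed genes passed. Quantile normalization and removal of the length trend each left 5 cholinergic genes in L-RUN minus H-RUN. Without the trend the median of members in CE was 0.0584, and without a minimum mean the median was -0.0542 in L-RUN and -0.0859 in RUN minus CE, by construction since the flat low genes enter. Against a baseline averaged from LD and CE, 1 member passed in L-RUN (Chrm3 -0.35, whereas Chrna7 was at -0.30, just inside the cut-off), and cholinergic genes numbered 2 in RUN and 1 in H-RUN, compared to 0.62% (RUN), 2.01% (L-RUN) and 0.694% (H-RUN) of expressed genes. With mean transcript lengths, 6 of the 10 members kept their place in the order of levels. Of 126 values of single members under an alternative, 9 had the other sign, all within the cut-off and at most 0.07 in size, in Chrm1, Chrna4 and Chrnb2. Among these, Chrna4 went from 0.06 to -0.03 in RUN with the averaged baseline. The causes were not tested. Depth is unknown, and no paired analysis was possible because each group had 1 library.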

Other observations

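Of the 11 nicotinic subunits outside the 10 genes above, 3 were expressed: Chrna1 and Chrnb1, which are known from the receptor of muscle, and Chrna2, which in the hippocampus marks a class of interneurons of CA1. Chrna1 had an rlog of 6.50 for LD, 6.52 for CE, 6.56 for RUN, 6.61 for L-RUN and 6.58 for H-RUN. Chrna2 had 5.92 for LD, 5.92 for CE, 5.90 for RUN, 5.86 for L-RUN and 5.84 for H-RUN, and Chrnb1 lay between 5.13 and 5.16. None of the 3 passed the cut-off in any of the 6 comparisons, and the largest difference from LD among them was 0.11 for Chrna1 in L-RUN. Of the other 8, Chrng was listed at 0 in all libraries.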
